A study of Mus musculus with 10 samples.

Results

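The genes described here are 36 genes of glucose breakdown and of the transcriptional response to low oxygen, taken by symbol from the 20006 genes listed for 10 whole mouse embryos at embryonic day 7.5. All 36 were listed, and 35 passed the filter on low values. RNA-seq compared 5 wild-type (WT) embryos with 5 embryos whose label gives the genotype as Axin1;Axin2 mutant, with the short name DKO. Axin1 and Axin2 are related scaffolds on which β-catenin is tagged for breakdown, which keeps canonical WNT signalling in check. The series asks which genes are expressed differently in the mutant embryos. The labels name neither the alleles nor the strain nor the litters. No label says that the embryos of a group came from separate litters, so the p-values measure the spread between these embryos, which may be technical in part.

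Glycolysis turns glucose into pyruvate, which is either reduced to lactate and exported or oxidised in mitochondria. Several of its steps can be run by related forms of an enzyme that differ between tissues. In low oxygen the hypoxia-inducible factors (HIFs) are no longer hydroxylated and destroyed, and they raise glucose transporters, glycolytic enzymes, pyruvate dehydrogenase kinases and genes of mitochondrial turnover. Gastrulating mouse embryos are known for high glucose uptake and lactate production.

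The libraries held 20744547 to 28505209 reads per embryo. Values are scaled counts, that is, reads per gene divided by 1 size factor per embryo. Axin1 fell in the mutants (log2 fold change −1.49, SE 0.21, adjusted p = 0.000614, n = 5 per group), from between 3314 and 3843 scaled counts in WT to between 819.5 and 2336, with mutant 4 the highest. Axin2 did not pass the threshold (log2 fold change −0.01, SE 0.17, adjusted p = 0.981), and what its mutated allele leaves to be counted is not known. Every marker gene of the gastrula's tissues that was looked up was listed. The epiblast markers summed to 35407 to 48032 scaled counts in WT and 13536 to 17329.8 in mutants (4 of 5 genes lower), and the nascent mesoderm markers to 4011 to 8915 scaled counts in WT and 651 to 1187 in mutants (5 of 5 lower). Fgf5, an epiblast marker, was at 0 in mutant 5. Visceral endoderm markers summed to 95430.1 to 130706 scaled counts in WT and 80796 to 146951 in mutants (1 of 7 genes higher). Mutants 1, 2, 3 and 5, at 140879 to 146951, were above every WT embryo in this sum, and mutant 4 was the lowest of the 10 embryos. Trophoblast markers summed to 57388 in mutant 4, against at most 26639 in any other embryo (1 of 10 genes higher between the groups). Mutant 4 was also highest in the allantois and extra-embryonic mesoderm sum, at 38915 against at most 16303 in WT (2 of 5 genes higher). Most of that sum in mutant 4 came from Hand1 (20275), which is also in the trophoblast list, and Plac1 (12764), and neither passed. Of the 2 genes that passed, Bmp4 was lowest of the mutants in mutant 4, at 1999, and Tbx4, at 2679, lay within the range of the other mutants. The primitive red cell sum was highest in mutant 4 as well, at 6901 against at most 888 in WT (1 of 5 higher). Parietal endoderm markers summed to 25335 to 42574 scaled counts in WT and 22789 to 37383 in mutants (2 of 6 lower), and maternal blood markers to 3656 to 16333 scaled counts in WT and 2247 to 10666 in mutants (2 of 6 tested higher). Hba-x of the red cell list and Hba-a2, Ptprc, S100a8 and S100a9 of the maternal blood list were at 0 in at least 1 embryo. Markers of the maternal decidua, the mother's tissue around the embryo, summed to 14909 in mutant 3 and 5322 in mutant 4, against 890.2 to 1399.9 in WT and 1549 to 2719.8 in the remaining mutants (2 of 8 genes higher). The part of these tissue differences in the results that follow was not tested. In bulk RNA, fewer cells of a type and less RNA per cell cannot be told apart.

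The pathway did not move as a block in the mutants. Of the 35 genes tested, 12 (34.3%) passed the threshold (limma, Benjamini-Hochberg adjusted p under 0.05), against 25.1% of the 15429 genes tested in the whole table. The higher genes were Pfkp, Pdk1, Slc16a1, Bnip3, Ankrd37 and Higd1a, which is 6 of 35 against 11.4% of all genes tested. The lower genes were Pfkl, Pfkm, Gapdh, Pkm, Ldhb and Ddit4, which is also 6 of 35, against 13.8%. The median log2 fold change of the 35 genes was 0.01, as it was over all genes tested. WT and mutant embryos did not overlap for 5 of the 35 genes (14.3%, against 17.1% of all genes tested): Pfkp and Ankrd37 were above every WT embryo in each mutant (7.14% of all genes tested), and Pfkl, Pkm and Ldhb were below (9.97%). The other tools gave 6 higher and 5 lower genes with edgeR, where 23.3% of all genes tested passed, and 7 and 8 with DESeq2, where 29.7% passed. Split by role, 3 of the 26 genes of uptake, glycolysis and pyruvate or lactate handling were higher and 5 lower, with a median log2 fold change of −0.08. Of the 9 tested genes of the HIF system and its effectors, 3 were higher and 1 lower, with a median of 0.37.

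**Figure D1:**
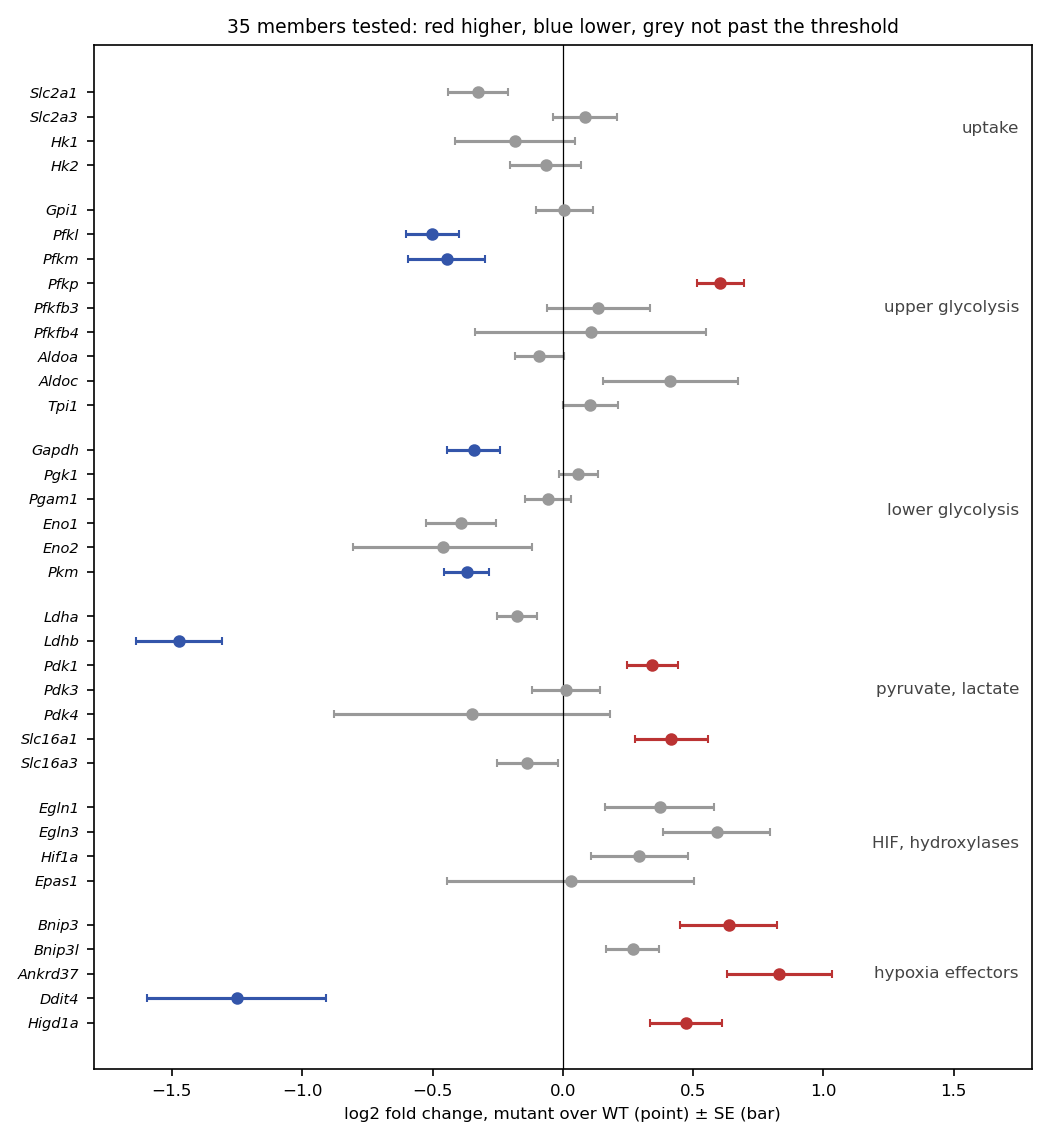
Log2 fold change of the 35 tested genes (x axis, mutant over WT; bars are the standard error, n = 5 embryos per group), in order of role along the y axis. Red genes were higher and blue genes lower at an adjusted p under 0.05; Ldhb at −1.47 and Ddit4 at −1.25 lie farthest to the left, and Ankrd37 at 0.83 farthest to the right.

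The 36 genes together took 3.67, 4.13, 3.60, 3.51 and 4.01 percent of the reads in WT 1 to 5 and 3.44, 3.21, 3.28, 2.92 and 3.42 percent in mutants 1 to 5. No mutant reached the lowest WT share, and the means were 3.78% ± 0.271 in WT and 3.25% ± 0.211 in mutants (SD, n = 5; described without a test). Most of it came from few genes: Ldha, Pkm, Eno1, Slc2a3, Gapdh and Aldoa held 2.80% ± 0.235 in WT and 2.30% ± 0.179 in mutants. Lower glycolysis, from Gapdh to Pkm, took 1.65% ± 0.168 in WT and 1.26% ± 0.0929 in mutants, again without overlap between the groups. The effectors of hypoxia took 0.0403% ± 0.00464 in WT and 0.0504% ± 0.00565 in mutants, with mutant 4 inside the WT range. Per kilobase of exon, with the union of all annotated exons as length, the highest WT levels were those of Ldha (46379.5 scaled counts per kb), Pkm (30465), Gapdh (22619) and Eno1 (21566). On the same scale the lowest were Car9 (0.831), Pdk4 (4.96) and Eno2 (12.6).

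**Figure D2:**
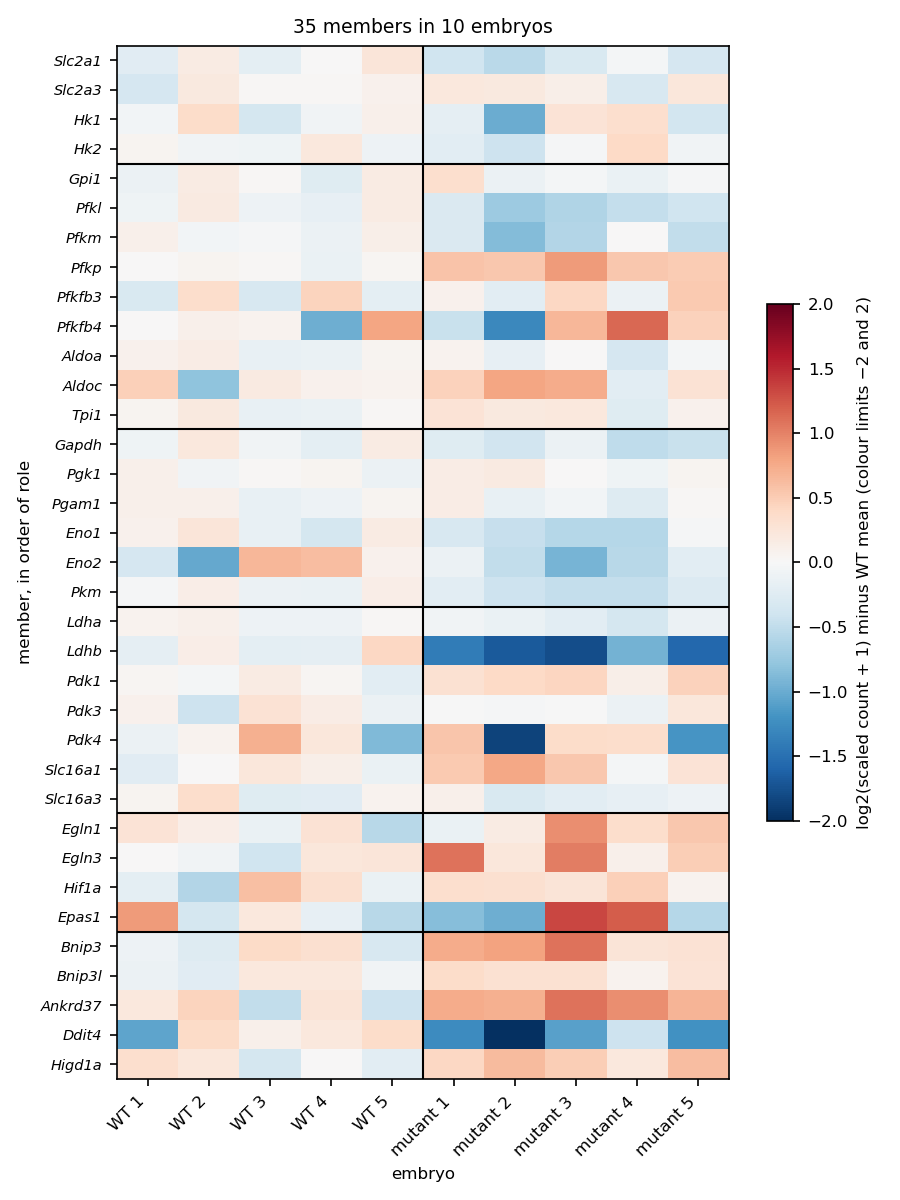
Each tested gene (rows, in order of role, with black lines between roles) in each embryo (columns), as the log2 of the scaled count + 1 minus the mean of the 5 WT embryos. Ldhb is low in each mutant and Pfkp is high in each, while Epas1 is high in WT 1, mutant 3 and mutant 4.

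Glucose uptake and phosphorylation gave no gene past the threshold. With limma 0 of the 4 genes passed, where 25.1% of all genes tested did. At an unadjusted p under 0.05 there was 1 (Slc2a1, lower), and that gene passed with DESeq2 but not with edgeR. Slc2a1, the glucose transporter GLUT1, had 36288, 48001, 37321, 42921 and 50529 scaled counts in WT embryos 1 to 5 and 32378, 29333, 34413, 41400.5 and 33617 in mutants 1 to 5. The mutants other than mutant 4 lay below every WT embryo (log2 fold change −0.33, SE 0.11, adjusted p = 0.0552). Slc2a3, the high-affinity transporter GLUT3, had 77317, 111905, 98495, 98891 and 103394 scaled counts in WT embryos 1 to 5 and 112082, 111714, 105301, 77829.6 and 114110.0 in mutants 1 to 5. Mutant 4 and WT 1 were low and the groups overlapped (log2 fold change 0.09, SE 0.12, adjusted p = 0.65). Hexokinases, which trap glucose in the cell, were represented by Hk1 and Hk2. Hk1 had 956, 1278, 780.1, 949.7 and 1061 scaled counts in WT embryos 1 to 5 and 875, 499, 1205, 1250.2 and 768 in mutants 1 to 5, with mutant 2 lowest (log2 fold change −0.19, SE 0.23, adjusted p = 0.591). For Hk2 the values were 1941, 1764, 1749.9, 2156 and 1732 scaled counts in WT embryos 1 to 5 and 1611, 1402, 1827, 2451 and 1765 in mutants 1 to 5, and mutant 4 was highest (log2 fold change −0.07, SE 0.14, adjusted p = 0.761). Both hexokinases overlapped between the groups, and the sign of each was opposite when mutant 2 was left out.

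The transcripts of phosphofructokinase, the enzyme of the committed step of glycolysis, differed between the groups in their proportions. Its liver, muscle and platelet subunits are encoded by Pfkl, Pfkm and Pfkp, which combine into tetramers. Pfkl (ENSMUSG00000020277.9, chromosome 10, 77986947 to 78010083, minus strand, build mm10) had 23451, 27902, 23121, 22087 and 27872 scaled counts in WT embryos 1 to 5 and 20253, 14959, 16343, 17704 and 18771 in mutants 1 to 5. Each mutant was below the lowest WT embryo, and Pfkl fell by 0.50 (log2, SE 0.10, adjusted p = 0.00412). Pfkp (ENSMUSG00000021196.13, chromosome 13, 6579768 to 6648777, minus strand) had 1361, 1399, 1372, 1229 and 1391 scaled counts in WT embryos 1 to 5 and 2002, 1968, 2436, 1963 and 1925 in mutants 1 to 5. Each mutant was above the highest WT embryo, with mutant 3 highest, and Pfkp rose by 0.60 (log2, SE 0.09, adjusted p = 0.000742). Pfkl and Pfkp passed the threshold in 21 of 21 alternative analyses (other tools, filters, scalings and pseudocounts, a replicate block, and embryos left out). Pfkm (ENSMUSG00000033065.13, chromosome 15, 98092589 to 98132451, plus strand) had 1210.4, 1084, 1113, 1039 and 1220.4 scaled counts in WT embryos 1 to 5 and 927, 617, 753, 1134 and 806 in mutants 1 to 5. It fell by 0.45 (log2, SE 0.15, adjusted p = 0.0421), but mutant 4 lay within the WT range and the call was lost in 12 of 21 alternatives, edgeR among them (adjusted p = 0.055).

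As a share of the counts of the 3 genes, Pfkp went from 5.23, 4.60, 5.36, 5.04 and 4.56 percent in WT 1 to 5 to 8.63, 11.2, 12.5, 9.44 and 8.95 percent in mutants 1 to 5. The means were 4.96% ± 0.361 in WT and 10.1% ± 1.64 in mutants (SD, n = 5). Per kilobase of exon Pfkl stayed the most abundant: it had 3728 scaled counts per kb in WT and 2638 in mutants, against 101 and 154 for Pfkp and 339 and 254 for Pfkm. Exon length here is the union of all annotated exons, 13.4 kb for Pfkp and 3.34 kb for Pfkm. The order of Pfkp and Pfkm depends on it, since Pfkp had the higher mean scaled count in both groups. The strand of the reads was not recorded. Exons of Pitrm1 overlap those of Pfkp on the opposite strand, and Pitrm1 was itself higher in the mutants (log2 fold change 0.41, SE 0.08, adjusted p = 0.00325), so reads in the shared part cannot be assigned to either gene. Exons on the opposite strand also overlap those of Axin2, Slc2a1, Hk1, Gpi1, Pfkm, Aldoa, Tpi1, Gapdh, Hif1a, Bnip3, Higd1a and Car9, and, of the further genes named here, Mpc1, Pck2, Pgm2, Ugp2, Rpe, Arnt2 and Rora. Exons on the same strand overlap those of Pfkm, Pkm, Hif1a, Ep300 and Tkt.

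**Figure D3:**
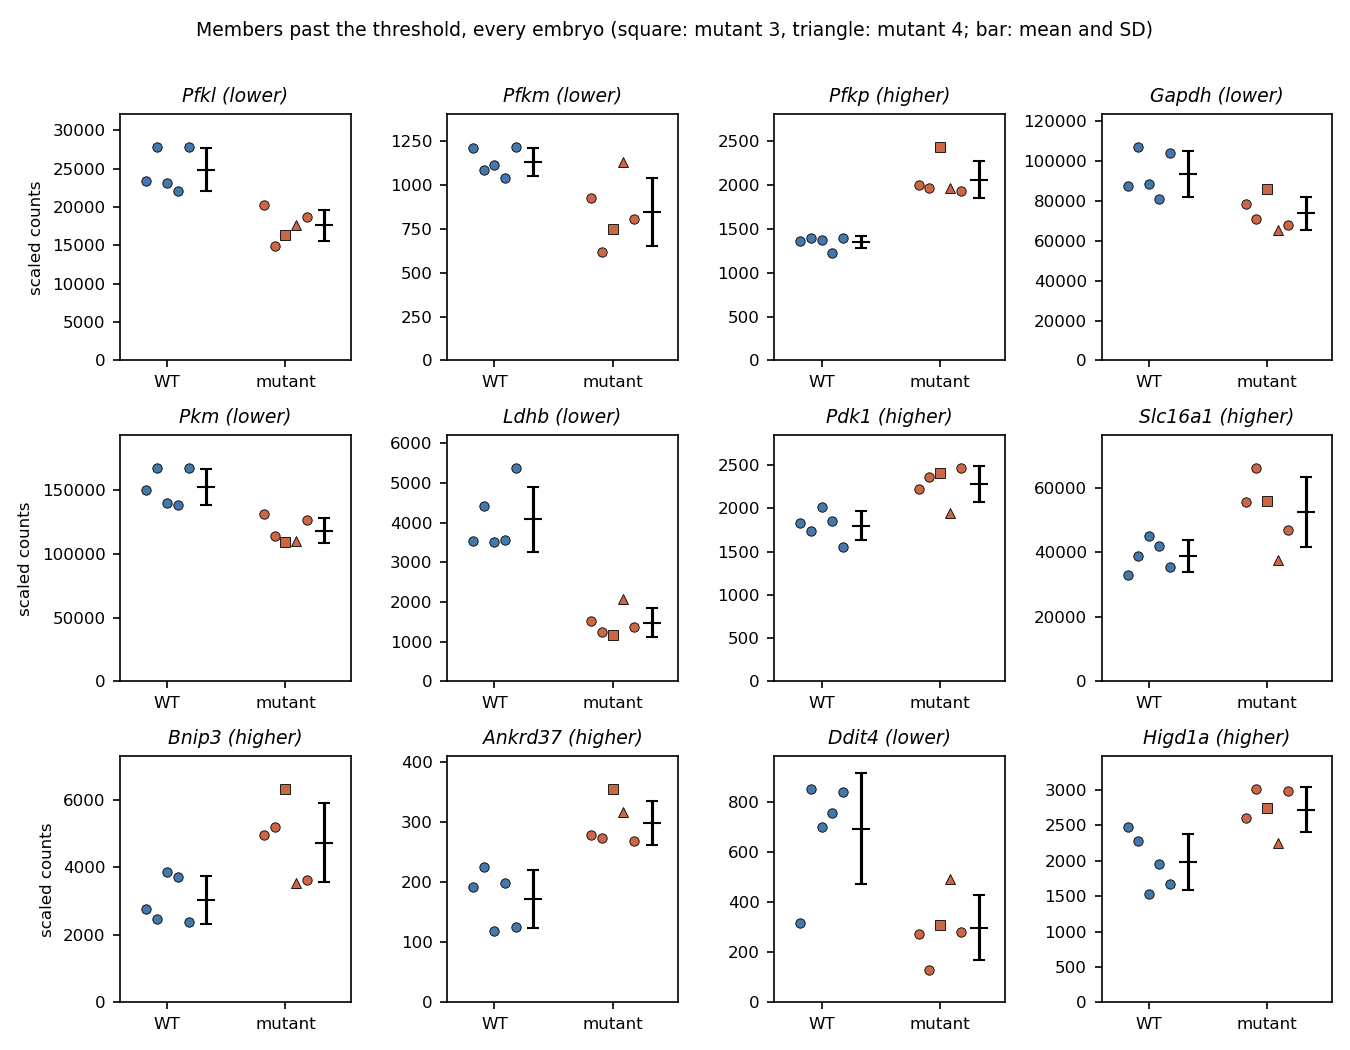
Scaled counts (y axis, from 0) of the 12 genes past the threshold in each embryo, WT in blue and mutant in orange; squares are mutant 3, triangles mutant 4, and the bars beside the points give the mean and SD of 5 embryos. Pfkl, Pkm and Ldhb lie below, and Pfkp and Ankrd37 above, every WT embryo in all 5 mutants.

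The promoters of Pfkl and Pfkp are shown because transcripts for subunits of 1 enzyme moved in opposite directions. Each line runs 5′ to 3′ on the gene's strand, from 250 bases before to 50 after the RefSeq start (GRCm38.p6; Pfkl chr10:78009758-78010057, minus strand; Pfkp chr13:6648722-6649021, minus strand). Capitals mark the letters ACGTG or GCGTG, the core bound by HIFs, searched on both strands.
Pfkl: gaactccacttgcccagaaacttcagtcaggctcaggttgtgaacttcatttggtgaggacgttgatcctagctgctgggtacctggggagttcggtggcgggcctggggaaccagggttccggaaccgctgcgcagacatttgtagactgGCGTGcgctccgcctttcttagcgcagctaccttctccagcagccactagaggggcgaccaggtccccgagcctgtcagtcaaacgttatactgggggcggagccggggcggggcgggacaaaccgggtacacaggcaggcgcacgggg
Pfkp: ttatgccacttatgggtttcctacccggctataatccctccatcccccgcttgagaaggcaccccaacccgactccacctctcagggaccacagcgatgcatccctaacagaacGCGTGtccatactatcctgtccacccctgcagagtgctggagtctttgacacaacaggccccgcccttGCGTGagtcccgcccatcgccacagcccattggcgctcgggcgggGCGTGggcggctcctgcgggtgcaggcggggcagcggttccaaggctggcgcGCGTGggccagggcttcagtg
Pfkl had 1 match and Pfkp 4, each of them GCGTG. The whole window shown for Pfkl lies inside the gene as the GENCODE annotation draws it, and that for Pfkp does not. A match is a string of letters and says nothing of binding.

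The remaining genes of upper glycolysis did not pass the threshold. Aldoa, the main aldolase, had 54680.4, 57369.6, 46415, 46913 and 53934 scaled counts in WT embryos 1 to 5 and 54469.5, 45984, 52038, 41057 and 50226 in mutants 1 to 5. The groups overlapped (log2 fold change −0.09, SE 0.09, adjusted p = 0.513). Aldoc, the brain aldolase, had 213, 87.6, 175, 163 and 161 scaled counts in WT embryos 1 to 5 and 212, 265, 258, 132 and 188 in mutants 1 to 5. WT 2 was lowest and mutants 2 and 3 were highest (log2 fold change 0.41, SE 0.26, adjusted p = 0.268). Gpi1, the isomerase after hexokinase, ran from 12773 to 16958 in WT and 13743 to 19080.4 in mutants (log2 fold change 0.01, SE 0.11, adjusted p = 0.977). Tpi1, which interconverts the triose phosphates, had 37074 ± 3794 in WT and 40024 ± 5311 in mutants (SD, n = 5; log2 fold change 0.11, SE 0.11, adjusted p = 0.501). Pfkfb3 and Pfkfb4 make and break down the sugar bisphosphate that activates phosphofructokinase, and their log2 fold changes were 0.14 (SE 0.20) and 0.11 (SE 0.44). Pfkfb4 varied from 48.8 scaled counts in mutant 2 to 268 in mutant 4.

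In lower glycolysis 2 of 6 genes (33.3%) were lower, Gapdh and Pkm, against 13.8% of all genes tested. Eno1 missed the threshold narrowly. Pkm, the pyruvate kinase that makes the last ATP of the pathway (ENSMUSG00000032294.16, chromosome 9, 59656368 to 59679375, plus strand), had 149438, 166925, 139839, 138244 and 167330.0 scaled counts in WT embryos 1 to 5 and 130637, 114048, 108921, 109679 and 126166 in mutants 1 to 5. Each mutant was below the lowest WT embryo, and Pkm fell by 0.37 (log2, SE 0.09, adjusted p = 0.009). Gapdh, which reduces NAD in the first of these steps (ENSMUSG00000057666.18, chromosome 6, 125161715 to 125166467, minus strand), had 87204, 107175, 88172, 80879 and 103999 scaled counts in WT embryos 1 to 5 and 78233, 71037, 85748, 65235 and 68058 in mutants 1 to 5. Mutant 3 lay within the WT range and mutant 4 was lowest, and Gapdh fell by 0.34 (log2, SE 0.10, adjusted p = 0.0282). The Gapdh call was lost in 5 of 21 alternatives, and Pkm lost its call with mutants 1, 2 and 5 alone (adjusted p = 0.0623). Gapdh is known for its many processed pseudogenes, and how reads shared with them were counted is not stated.

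Eno1, the main enolase, had 122337, 135642, 103471, 89640.2 and 128941 scaled counts in WT embryos 1 to 5 and 91640.3, 83151, 76844, 76928 and 113094 in mutants 1 to 5. Mutants 2, 3 and 4 were below every WT embryo, WT 4 was low, and mutants 1 and 5 were within the WT range (log2 fold change −0.39, SE 0.13, adjusted p = 0.0504). A near-identical copy, Eno1b, was listed separately with 13389 ± 3943 in WT and 16686 ± 3901 in mutants (SD, n = 5), and the reads may have been split between them. Summed with it, Eno1 gave a log2 fold change of −0.30 (adjusted p = 0.0623), a sum added after the data were seen. Eno2, the neuronal enolase, was scarce, at 42.6, 26.2, 86.3, 83.9 and 57.3 scaled counts in WT embryos 1 to 5 and 50.02, 38.3, 28.0, 36.4 and 46.5 in mutants 1 to 5. WT embryos spread over a wider range than the mutants, which lay inside it (log2 fold change −0.46, SE 0.34, adjusted p = 0.351). Pgk1, the kinase that makes the first ATP, had 14677 ± 942 in WT and 15300.3 ± 1149 in mutants (SD, n = 5; log2 fold change 0.06, SE 0.08, adjusted p = 0.603). Pgam1, the phosphoglycerate mutase, had 16446 ± 1321 in WT and 15845 ± 1723 in mutants (SD, n = 5; log2 fold change −0.06, SE 0.09, adjusted p = 0.68).

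Among the genes of pyruvate and lactate, Ldhb had the largest change of the 35 tested. Ldha and Ldhb encode the subunits of lactate dehydrogenase. The A subunit is known for turning pyruvate into lactate and the B subunit for the reverse reaction. Ldhb (ENSMUSG00000030246.11, chromosome 6, 142490249 to 142507957, minus strand) had 3546, 4424, 3516, 3574 and 5391 scaled counts in WT embryos 1 to 5 and 1532, 1254, 1177, 2083 and 1364 in mutants 1 to 5. Each mutant was below the lowest WT embryo, with mutant 4 nearest, and Ldhb fell by 1.47 (log2, SE 0.17, adjusted p = 0.000128), to 0.360 of its WT level. It passed in 21 of 21 alternatives, at log2 fold changes from −1.60 to −1.37. Ldha had 161013, 165231, 142563, 142240.0 and 156535 scaled counts in WT embryos 1 to 5 and 145526, 139290.0, 132878, 119955 and 141924 in mutants 1 to 5. The mutants were lower except mutant 1, which overlapped WT (log2 fold change −0.18, SE 0.08, adjusted p = 0.117). Ldha passed in 1 of 21 alternatives, reads per total.

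The promoter of Ldhb (chr6:142507908-142508207, minus strand, GRCm38.p6, with the same window and capitals as for Pfkl) is shown as that of the gene with the largest change.
Ldhb: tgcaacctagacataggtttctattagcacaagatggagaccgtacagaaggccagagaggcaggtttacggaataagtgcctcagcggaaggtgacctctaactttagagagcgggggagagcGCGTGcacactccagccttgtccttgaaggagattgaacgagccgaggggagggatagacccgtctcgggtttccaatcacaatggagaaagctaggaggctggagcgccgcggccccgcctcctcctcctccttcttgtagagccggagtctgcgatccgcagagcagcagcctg
It had 1 match to GCGTG and none to ACGTG.

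Pdk1, a kinase that inactivates pyruvate dehydrogenase and is a known HIF target (ENSMUSG00000006494.11, chromosome 2, 71873224 to 71903858, plus strand), had 1835, 1743, 2009.9, 1849.8 and 1553 scaled counts in WT embryos 1 to 5 and 2220.5, 2366, 2407, 1944 and 2470.0 in mutants 1 to 5. Mutants 1, 2, 3 and 5 were above every WT embryo and mutant 4 was within the WT range. Pdk1 rose by 0.34 (log2, SE 0.10, adjusted p = 0.0221), with the call lost in 5 of 21 alternatives. Pdk3, a related kinase, had 1433, 1020.5, 1664, 1508 and 1246 scaled counts in WT embryos 1 to 5 and 1346, 1329.9, 1349, 1255 and 1579 in mutants 1 to 5. Its WT range held each of the mutants (log2 fold change 0.01, SE 0.13, adjusted p = 0.955). Pdk4, the kinase of the fasted state, had few reads, at 3.83 to 27.3 scaled counts (log2 fold change −0.35, SE 0.53, adjusted p = 0.665).

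Slc16a1 encodes MCT1, a carrier of lactate and pyruvate across the plasma membrane (ENSMUSG00000032902.1, chromosome 3, 104638668 to 104658462, plus strand). It had 33065, 38942, 45224, 41948 and 35419 scaled counts in WT embryos 1 to 5 and 55672, 66317, 55988, 37635 and 46955 in mutants 1 to 5. Mutant 4 lay within the WT range and the other mutants above it. Slc16a1 rose by 0.42 (log2, SE 0.14, adjusted p = 0.0476), just inside the threshold, and 11 of 21 alternatives lost the call. Slc16a3, the lactate exporter MCT4, had 15283, 18717, 12431, 12523 and 15425 scaled counts in WT embryos 1 to 5 and 15795, 11845, 12686, 13132 and 13755 in mutants 1 to 5. WT 2 was highest and the groups overlapped (log2 fold change −0.14, SE 0.12, adjusted p = 0.43).

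Ratios of related genes within an embryo hardly depend on the size factor. Of 12 ratios, 2 passed after adjustment over the 12 (two-sided exact permutation test over 252 assignments of the embryos, smallest possible p 0.00794). The log2 ratio of Pfkp to Pfkl was −4.11, −4.32, −4.07, −4.17 and −4.32 in WT 1 to 5 and −3.34, −2.93, −2.75, −3.17 and −3.28 in mutants 1 to 5. Each mutant was above every WT embryo, by 1.10 on average, so that the ratio was 2.15 times that of WT (exact p = 0.00794, adjusted p = 0.0476). Since each mutant was above every WT embryo for Pfkp and below for Pfkl, this separation was fixed. The test of this ratio therefore adds no support to the calls of Pfkp and Pfkl. The ratios were also chosen with earlier results of these data known. The log2 ratio of Ldhb to Ldha was −5.50, −5.22, −5.34, −5.31 and −4.86 in WT and −6.57, −6.79, −6.82, −5.85 and −6.70 in mutants, in the same order. Each mutant was below every WT embryo, with mutant 4 nearest, and the difference was −1.30 (exact p = 0.00794, adjusted p = 0.0476). Ldhb was at most 2083 scaled counts in mutants and at least 3516 in WT, and Ldha at least 119955 and at most 165231. The ranges of the 2 genes thus fixed this separation as well, and the test of this ratio adds no support to the call of Ldhb. Each adjusted p of 0.0476 also depends on both ratios reaching the smallest possible p. With 1 embryo left out the exact test cannot go below 0.0159, and both ratios then had an adjusted p of 0.0635 to 0.0952. The differences then ran from 1.02 to 1.17 for Pfkp over Pfkl and from −1.47 to −1.20 for Ldhb over Ldha.

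The other ratios did not pass. Pdk3 over Pdk1 differed by −0.33 (log2) and Bnip3l over Bnip3 −0.37 (each with exact p = 0.0317, adjusted p = 0.0952). Slc2a3 over Slc2a1 was higher in mutants 1, 2, 3 and 5 than in any WT embryo and lower in mutant 4 than in any (difference 0.41, exact p = 0.0635, adjusted p = 0.127). Slc16a3 over Slc16a1 differed by −0.55 with the same p-values, and its groups overlapped. Aldoc over Aldoa differed by 0.50 (exact p = 0.111). For Hk2 over Hk1, Pfkm over Pfkl, Eno2 over Eno1, Epas1 over Hif1a and Egln3 over Egln1 the differences lay between −0.26 and 0.22, with exact p-values of 0.476 to 0.921.

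**Figure D4:**
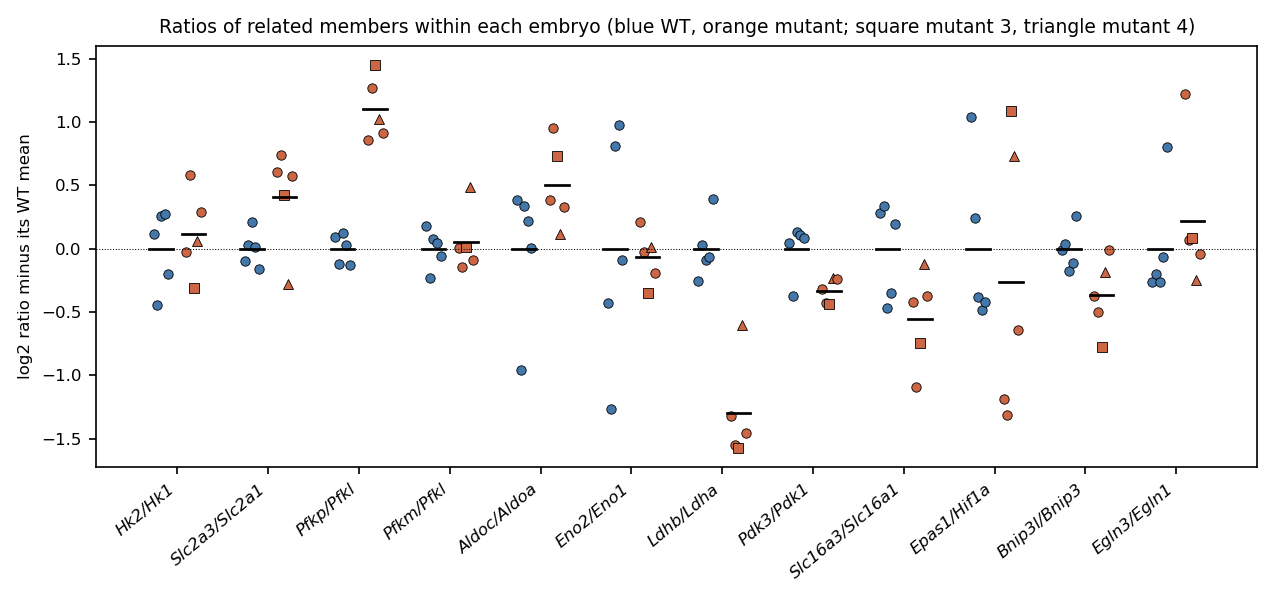
Log2 ratio of 12 pairs of related genes within each embryo (y axis, minus the WT mean of that ratio); blue points are WT, orange points mutant, squares mutant 3, triangles mutant 4, and black lines group means of 5 embryos. The mutant points lie apart from WT for Pfkp over Pfkl, above, and for Ldhb over Ldha, below.

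The HIF factors and the hydroxylases that mark them for destruction gave no gene past the threshold with limma. This is 0 of 4 genes, where 25.1% of all genes tested passed. At an unadjusted p under 0.05 there was 1 (Egln3, higher), which passed with DESeq2 and with edgeR under RLE scaling, but not with edgeR under TMM scaling. Hif1a, the oxygen-regulated subunit of HIF-1, had 4283, 3249, 7380.0, 6095 and 4457 scaled counts in WT embryos 1 to 5 and 6159, 6135, 5822, 6825 and 5146 in mutants 1 to 5. Each mutant lay inside the wide WT range (log2 fold change 0.29, SE 0.18, adjusted p = 0.267). Epas1, which encodes HIF-2α, had 409, 177, 262, 201 and 154 scaled counts in WT embryos 1 to 5 and 125, 114, 572, 526 and 152 in mutants 1 to 5. Mutants 3 and 4 were highest and WT 1 next (log2 fold change 0.03, SE 0.48, adjusted p = 0.974). Mutants 3 and 4 had the highest decidua marker sums, at 14909 and 5322. That of WT 1 was the lowest of any embryo, at 890.2. The parietal endoderm sum was highest in WT 1 and mutant 4, at 42574 and 37383, and was 24973 in mutant 3. The part of either tissue in the Epas1 values was not tested. With mutants 1, 2 and 5 alone, the log2 fold change of Epas1 was −0.80 and did not pass either.

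Egln3, a prolyl hydroxylase that HIF itself induces, had 549, 516, 411, 637 and 644 scaled counts in WT embryos 1 to 5 and 1159.8, 641, 1109, 585 and 768 in mutants 1 to 5. Mutants 1, 3 and 5 were above every WT embryo (log2 fold change 0.59, SE 0.21, adjusted p = 0.0549). Egln1, the main HIF prolyl hydroxylase, had 1141, 1028, 854, 1155 and 639 scaled counts in WT embryos 1 to 5 and 858, 1056, 1803, 1198 and 1368 in mutants 1 to 5. WT 5 was lowest and mutant 3 highest (log2 fold change 0.37, SE 0.21, adjusted p = 0.212). The abundance of these transcripts does not measure HIF protein, which is set mainly after translation.

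Of the 5 tested effectors of hypoxia, 3 were higher and 1 lower in the mutants, where 11.4% and 13.8% of all genes tested were. Ankrd37, an ankyrin-repeat protein known as a HIF target (ENSMUSG00000050914.15, chromosome 8, 45996902 to 46005707, minus strand), had 192, 225, 118, 198 and 125 scaled counts in WT embryos 1 to 5 and 277, 274, 355, 316 and 268 in mutants 1 to 5. Each mutant was above the highest WT embryo, and Ankrd37 rose by 0.83 (log2, SE 0.20, adjusted p = 0.0115). Its exons overlap those of Ufsp2 on the opposite strand, which was also higher (log2 fold change 0.52, SE 0.12, adjusted p = 0.00813), and the shared reads cannot be told apart. With mutants 1, 2 and 5 alone Ankrd37 lost its call (adjusted p = 0.0524).

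Bnip3 and Bnip3l encode receptors that send mitochondria to autophagy. Bnip3 (ENSMUSG00000078566.8, chromosome 7, 138890836 to 138909519, minus strand) had 2763, 2476, 3869, 3713 and 2370.3 scaled counts in WT embryos 1 to 5 and 4973, 5190.2, 6337, 3551 and 3636 in mutants 1 to 5. Mutants 1, 2 and 3 were above every WT embryo, and mutants 4 and 5 were within the WT range. Bnip3 rose by 0.64 (log2, SE 0.19, adjusted p = 0.026), with the call lost in 6 of 21 alternatives. Bnip3l had 3382, 3118, 4222, 4231 and 3483 scaled counts in WT embryos 1 to 5 and 4725, 4529, 4542, 3853 and 4443 in mutants 1 to 5. The mutants other than mutant 4 were above every WT embryo, and the gene did not pass (log2 fold change 0.27, SE 0.10, adjusted p = 0.0733). Higd1a, a protein of the mitochondrial inner membrane that HIF induces (ENSMUSG00000038412.7, chromosome 9, 121848563 to 121858362, minus strand), had 2475, 2277, 1526, 1955 and 1679 scaled counts in WT embryos 1 to 5 and 2602, 3021, 2753, 2249.7 and 2984 in mutants 1 to 5. Mutant 4 lay within the WT range and the others above it. Higd1a rose by 0.47 (log2, SE 0.14, adjusted p = 0.0264), with the call lost in 4 of 21 alternatives.

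Ddit4, which restrains mTORC1 and responds to hypoxia, stress and glucocorticoids, went the other way. It (ENSMUSG00000020108.3, chromosome 10, 59949669 to 59951834, minus strand) had 316, 854, 703, 756 and 842 scaled counts in WT embryos 1 to 5 and 275, 131, 309, 494 and 283 in mutants 1 to 5. WT 1 was as low as the mutants, mutant 2 was lowest, and mutant 4 was nearest to the other WT embryos. Ddit4 fell by 1.25 (log2, SE 0.34, adjusted p = 0.0195). Without WT 5 its adjusted p was 0.0549.

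Car9, a cell-surface carbonic anhydrase induced strongly by HIF, was too scarce for the filter. It had 4, 3, 2, 0 and 1 reads in WT 1 to 5 and 15, 6, 14, 19 and 6 reads in mutants 1 to 5. Every mutant had more reads than any WT embryo. Its mean of 7.01 scaled counts over the 10 embryos was below the minimum of 10, so Car9 was not tested in the main fit. The limma alternative without a filter gave a log2 fold change of 2.21 (adjusted p = 0.0129), on only 0 to 19 reads per embryo.

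The promoters of Ankrd37 (chr8:45999801-46000100, minus strand) and Bnip3 (chr7:138909457-138909756, minus strand) are shown as those of effectors that rose (GRCm38.p6, same window and capitals).
Ankrd37: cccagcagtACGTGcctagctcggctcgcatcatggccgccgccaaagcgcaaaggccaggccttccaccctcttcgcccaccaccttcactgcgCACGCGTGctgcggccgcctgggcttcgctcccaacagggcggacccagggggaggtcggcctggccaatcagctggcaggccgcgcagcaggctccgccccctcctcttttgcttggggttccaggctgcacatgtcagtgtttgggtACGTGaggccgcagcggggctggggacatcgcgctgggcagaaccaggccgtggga
Bnip3: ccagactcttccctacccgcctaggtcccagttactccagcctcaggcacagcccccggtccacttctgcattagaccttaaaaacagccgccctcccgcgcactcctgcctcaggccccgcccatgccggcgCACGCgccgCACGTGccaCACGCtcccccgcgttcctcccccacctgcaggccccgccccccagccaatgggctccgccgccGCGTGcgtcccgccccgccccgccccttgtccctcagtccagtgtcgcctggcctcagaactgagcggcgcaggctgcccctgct
Ankrd37 had 2 matches to ACGTG and 2 to GCGTG, and the latter overlap each other. Bnip3 had 2 and 3, where the palindrome CACGTG counts once on each strand. The RefSeq start of Ankrd37 used here lies inside the gene as GENCODE draws it.

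RefSeq promoters were found for 33 of the 36 genes, 46 promoters in all. ACGTG or GCGTG occurred in 38 of the 46 (82.6%), against 43.8% of 32851 mouse promoters of the same length. ACGTG alone occurred in 56.5% of the genes' promoters and 19.6% of all promoters. The genes' promoters were also richer in G and C, with a median of 62.8% against 52.7%. The match did not separate the directions: it was present for 6 of 6 higher genes, 6 of 6 lower genes and 17 of 20 genes that did not pass.

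The embryos did not contribute evenly to the 12 calls. Mutant 4 was the mutant nearest to the WT mean for 7 of the 12 genes (Pfkm, Ldhb, Pdk1, Slc16a1, Bnip3, Ddit4 and Higd1a), and mutants 2 and 3 were the farthest for 5 each. Without mutant 4 the higher genes numbered 8 and the lower 6, with Bnip3l, Egln3 and Slc2a1 gained and Gapdh lost, where 29.4% of all genes tested passed. With mutants 1, 2 and 5 against WT, 5 were higher and 6 lower, with Slc2a1 gained and Ankrd37 and Pkm lost, where 23.7% of all genes tested passed. Without WT 5 the calls were Pfkp, Ankrd37, Pfkl, Pkm and Ldhb, where 16.2% of all genes tested passed. Leaving out mutant 2, 3 or 5 left 3, 2 and 3 higher genes, Pfkp and Ankrd37 among them each time. Over all genes tested the number of higher genes fell as well, from 1754 with every embryo to 1240, 1217 and 1506, in the same order.

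Other genes of these pathways were counted from lists drawn up with earlier results of these data known. Over all 6 lists, 20 of 97 tested genes were higher and 14 lower, against 11.4% and 13.8% of all genes tested, with a median log2 fold change of 0.13. The lower share, 14.4%, was near that of all genes. Without WT 5, 21 of the 97 passed, where 16.2% of all genes tested did.

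The list of other glycolytic isoenzymes also held glucose transporters and regulatory enzymes. It gave 3 higher and 6 lower of 19 tested (15.8% and 31.6%, against 11.4% and 13.8% of all genes tested), with a median log2 fold change of −0.21. Eno3, the muscle enolase, was lower (629 ± 88.3 in WT and 369 ± 74.0 in mutants, SD, n = 5; log2 fold change −0.78, SE 0.15, adjusted p = 0.00372). Ldhc, the testis form of lactate dehydrogenase, was lower from a low level (46.0 ± 8.78 in WT and 18.8 ± 5.60 in mutants; log2 fold change −1.26, SE 0.29, adjusted p = 0.00775). Slc2a8, an intracellular glucose transporter, was lower (log2 fold change −0.88, SE 0.19, adjusted p = 0.00666). Slc2a2, the glucose transporter of liver, was higher (2424 ± 467 in WT and 4084 ± 828 in mutants; log2 fold change 0.75, SE 0.17, adjusted p = 0.00752). Its lowest mutant value was in mutant 4, the embryo with the lowest visceral endoderm marker sum, and the other 4 mutants were above every WT embryo in that sum; its part in the result was not tested.

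Entry of pyruvate into mitochondria gave 4 higher and 0 lower of 10 tested (11.4% and 13.8% of all genes tested), with a median of 0.23. None was lower at an unadjusted p under 0.05 in limma, nor past the threshold in edgeR or DESeq2. Mpc1 and Mpc2, which form the mitochondrial pyruvate carrier, had log2 fold changes of 1.18 (SE 0.23, adjusted p = 0.00363) and 0.52 (SE 0.13, adjusted p = 0.0124). Pdhb, a subunit of pyruvate dehydrogenase, had 3785 ± 133 in WT and 4568 ± 201 in mutants (SD, n = 5; log2 fold change 0.27, SE 0.07, adjusted p = 0.0122). Each mutant exceeded every WT embryo for Mpc1, Mpc2 and Pdhb, 3 of 10 genes, against 7.14% of all genes tested. Dld, the dehydrogenase subunit shared with other complexes, was also higher (log2 fold change 0.48, SE 0.16, adjusted p = 0.0476).

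The pentose phosphate pathway, which branches off before phosphofructokinase, gave 1 higher and 2 lower of 9 tested (11.1% and 22.2%, against 11.4% and 13.8% of all genes tested), with a median of −0.18. Rpe was higher (log2 fold change 0.72, SE 0.21, adjusted p = 0.024), and Tkt and H6pd were lower (log2 fold change −0.30, SE 0.09, adjusted p = 0.0316 for Tkt). Gluconeogenesis and glycogen genes gave 4 higher and 1 lower of 15 (26.7% and 6.67%, against 11.4% and 13.8% of all genes tested), with a median of 0.13. Pck2, the mitochondrial form of the enzyme that makes phosphoenolpyruvate, had 717 ± 67.5 in WT and 399 ± 34.6 in mutants (SD, n = 5; log2 fold change −0.84, SE 0.11, adjusted p = 0.000366). The gene listed as Pgm1 (ENSMUSG00000029171.12, chromosome 5) was higher (log2 fold change 0.63, SE 0.10, adjusted p = 0.00141). So were the liver glycogen phosphorylase Pygl (log2 fold change 0.82, SE 0.17, adjusted p = 0.00492) and Ugp2, which makes the sugar donor for glycogen (log2 fold change 1.20, SE 0.27, adjusted p = 0.0081). The gene listed as Pgm2, on chromosome 4, did not pass (log2 fold change 0.06, SE 0.11, adjusted p = 0.692).

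Partners of HIF in oxygen sensing gave 1 higher and 3 lower of 14 (7.14% and 21.4%, against 11.4% and 13.8% of all genes tested), with a median of −0.11. The 4 that passed in either direction are 28.6%, near the 25.1% of all genes tested. Arnt2, a dimerisation partner of the HIF α subunits, had 116 ± 24.1 in WT and 31.1 ± 14.6 in mutants (SD, n = 5; log2 fold change −1.97, SE 0.35, adjusted p = 0.00215). Arnt, a related gene with more counts, did not pass (1336 ± 172 in WT and 1256 ± 68.2 in mutants, log2 fold change −0.08, SE 0.10, adjusted p = 0.595). Cited2, which competes with HIF for its coactivator, was lower (log2 fold change −0.69, SE 0.14, adjusted p = 0.00345), as was that coactivator, Ep300 (log2 fold change −0.40, SE 0.10, adjusted p = 0.0157). Tceb1, the elongin C of the ubiquitin ligase that acts on hydroxylated HIF, was higher (log2 fold change 0.77, SE 0.19, adjusted p = 0.0117). The 4 of 14 genes that passed did not overlap between the groups, against 17.1% of all genes tested.

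Other hypoxia-inducible genes gave 7 higher and 2 lower of 30 tested (23.3% and 6.67%, against 11.4% and 13.8% of all genes tested), with a median of 0.35. The 9 that passed in either direction are 30.0%, against 25.1% of all genes tested. Vldlr, a lipoprotein receptor, had 104, 102, 182, 124 and 95.8 scaled counts in WT 1 to 5 and 725, 458, 847, 499 and 605 in mutants 1 to 5. Each mutant was above every WT embryo (log2 fold change 2.36, SE 0.22, adjusted p = 3.47e-05). P4ha1, a collagen prolyl hydroxylase, had 3045 ± 198 in WT and 4372 ± 278 in mutants (SD, n = 5; log2 fold change 0.52, SE 0.08, adjusted p = 0.000742), and Tmem45a had 29.4 ± 8.59 in WT and 103 ± 33.8 in mutants (log2 fold change 1.79, SE 0.30, adjusted p = 0.00159). Rora, a nuclear receptor, was higher as well (log2 fold change 1.56, SE 0.30, adjusted p = 0.00341), with mutant 4 nearest to WT. Direction was not shared by the whole list, since Kdm4b and Ppfia4 were lower (log2 fold change −0.55, SE 0.15, adjusted p = 0.0211 for Kdm4b).

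**Figure D5:**
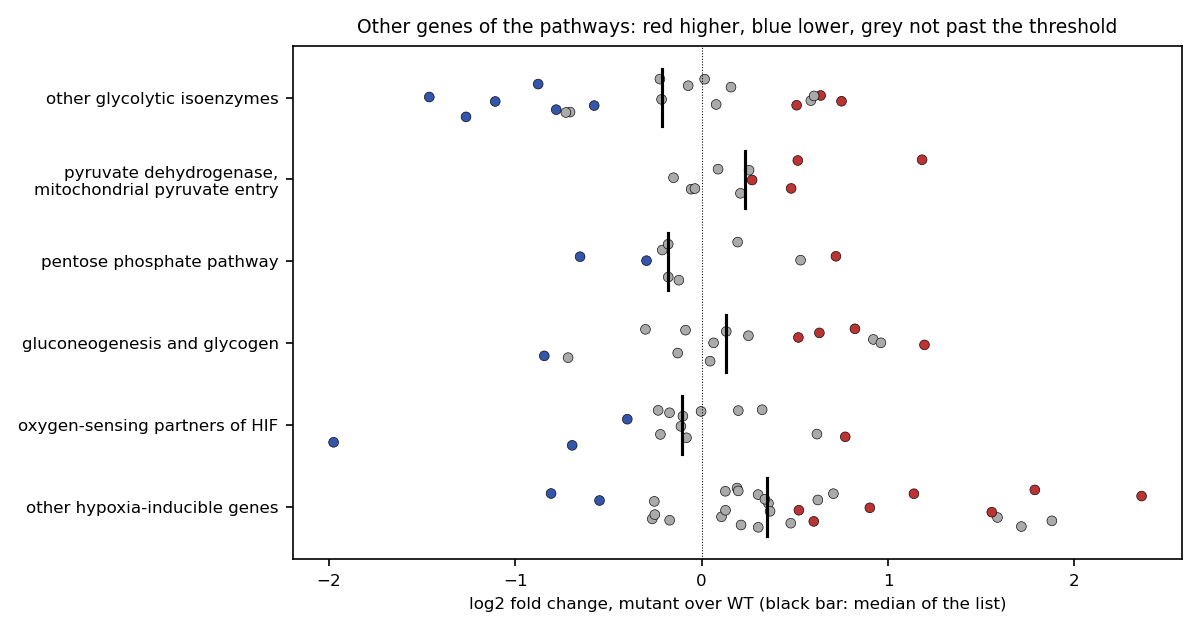
Log2 fold change (x axis, mutant over WT) of each tested gene in 6 other lists (rows), with black bars at the median of each list; red genes were higher, blue genes lower and grey genes not past the threshold. The medians run from −0.21 for other glycolytic isoenzymes to 0.35 for other hypoxia-inducible genes.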

How the data were processed

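RNA from each embryo (1.9 to 2 ng, integrity 9.7 to 10) was amplified for 12 cycles with a SMART-Seq kit, per the labels' protocols. This template-switching chemistry keeps no strand, and no molecular identifiers are named. Per the submitters' processing notes, the tools were cutadapt 1.6, STAR 2.5.0a, HTSeq 0.5.3 and DESeq, on build mm10. The deposited signal values are read counts that the authors scaled by 1 size factor per embryo: 100% of values were whole reads within 0.01 after division by each column's smallest value.

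Scaled counts were compared as log2(value + 1) with limma 3.58.1 (intensity trend, R 4.3.3) over the 15429 genes with a mean of at least 10, with Benjamini-Hochberg adjustment and a threshold of 0.05. Fold changes are on that log2 scale, which understates those of low genes. Ratios used a two-sided exact permutation test. Recovered reads were also tested with edgeR 4.0.16 (TMM, 3596 genes passed) and DESeq2 1.42.0 (4533 genes passed). Other alternatives were pseudocounts, filters, scalings, a replicate block, leaving out each embryo, and mutants 1, 2 and 5 alone. The limma step was tested on simulated data. Coordinates and exon lengths (union of exons) came from GENCODE M21 (GRCm38), matched by ID for 19935 of 20006 genes, and promoters from RefSeq (GRCm38.p6). The genes, lists and ratios were chosen with earlier results of these data known. Named were each gene past the threshold, each gene in a ratio, and up to 4 genes with the smallest adjusted p per other list. Genes of those lists named beyond that were chosen after their values were seen. The values of 1 gene of these lists are not reported here.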

Additional observations from a re-analysis of the deposited data

Results flagged for a closer look

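In 11 of 98 groups of 5 embryos examined (36 genes, 12 ratios and the summed share of reads, in each genotype), 1 embryo stood apart from the others by more than Dixon's critical value of 0.71 for the gap over the range. Chance alone flags about 1 group in 20.

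Mutant 4 stood apart in 3 of them. Its Slc2a3 count was lowest of the mutants, at 77829.6, against 105301 to 114110.0 in the other mutants. Its log2 ratio of Ldhb to Ldha was highest, at −5.85, against −6.82 to −6.57 in the other mutants, and so was its ratio of Pfkm to Pfkl, at −3.96, against −4.60 to −4.44. Mutant 4 also had the highest trophoblast marker sum, whose part in these values was not tested.

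Pfkp had such an embryo in both genotypes, with the highest mutant value in mutant 3 (2436, against 1925 to 2002 scaled counts) and the lowest WT value in WT 4 (1229, against 1361 to 1399). Both lie on the side away from the other genotype. The Ddit4 count of WT 1 was 316, against 703 to 854 scaled counts in the other WT embryos, which places that embryo among the mutants for this gene. Mutant 1 had the highest Gpi1 count, 19080.4, against 13743 to 14869 in the other mutants.

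The log2 ratio of Egln3 to Egln1 was highest in WT 5 among WT embryos (0.0105, against −1.05 to −0.86) and in mutant 1 among mutants (0.43, against −1.03 to −0.70). WT 2 had the lowest log2 ratio of Aldoc to Aldoa (−9.34, against −8.37 to −8.00) and of Pdk3 to Pdk1 (−0.77, against −0.36 to −0.27) among WT embryos.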

How the results depend on the processing

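Pfkl, Pfkp and Ldhb passed in 21 of 21 alternatives, Pkm, Ankrd37 and Ddit4 in 20, and Higd1a, Gapdh, Pdk1, Bnip3, Slc16a1 and Pfkm in 17 to 9. None of the 12 changed sign. Of the 23 tested genes that did not pass, 18 passed in no alternative and 5 (Slc2a1, Eno1, Ldha, Bnip3l and Egln3) in some. Leaving out 1 embryo at a time, 2 to 8 genes were higher and 3 to 7 lower, 2505 to 4535 genes of the whole table passed, 21 to 35 genes of the other lists passed, and 0 of the 12 ratios passed. The share of reads differed by −0.598 to −0.443 percentage points. Without WT 5, 2 genes were higher and 3 lower. The cause was not tested. No ratio passed with mutants 1, 2 and 5 (0, where the exact test cannot go below 0.0357). With the replicate number as a block, 4 genes were higher and 6 lower, 3253 genes passed in all and 0 ratios did, since 5 pairs cannot go below 0.0625. The numbers did not pair the embryos: same-numbered deviations correlated at −0.08 to 0.08, and 2 of the 5 WT embryos correlated best with the mutant of their own number. Scaling by total reads shifted the median of all genes by less than 0.1 (log2) and gave 5 higher and 9 lower genes.

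Some genes and ratios that did not pass changed sign. Leaving out 1 embryo at a time, the log2 fold changes ran from −0.31 to 0.016 for Hk1, −0.18 to 0.021 for Hk2, −0.078 to 0.048 for Gpi1, −0.15 to 0.46 for Pfkfb4, −0.089 to 0.087 for Pdk3, −0.58 to 0.024 for Pdk4 and −0.30 to 0.28 for Epas1. The ratio of Pfkm to Pfkl ran from −0.055 to 0.10, Eno2 over Eno1 from −0.39 to 0.17 and Egln3 over Egln1 from −0.033 to 0.42. With mutants 1, 2 and 5, Pfkfb4 was −0.42, Pgam1 0.0078, Epas1 −0.80 and Pfkm over Pfkl −0.077. With reads per total, Gpi1 was −0.051, Pdk3 −0.044 and Epas1 −0.028. Pdk3 was −0.0026 and −0.00088 with edgeR (TMM and RLE) and −0.00076 with DESeq2. Depth limits Car9 (0 to 19 reads), Pdk4 and Eno2.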

Other observations

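The share of Eno1b in the sum of Eno1 and Eno1b took 2 levels, the lower in 4 of 5 WT embryos and 1 mutant, the higher in 4 of 5 mutants and 1 WT embryo. It was 8.15, 9.05, 8.69, 9.03 and 8.16 percent in WT 1, WT 2, WT 3, WT 5 and mutant 5, and 18.2, 18.2, 17.6, 19.0 and 18.2 percent in WT 4 and mutants 1 to 4. No embryo lay between. For Eno1 itself, WT 4 was the lowest WT embryo and mutant 5 the highest mutant.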
